A study of Mus musculus with 12 samples.

Results

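The genes described here are 10 members of the matrix metalloproteinase system of the mouse brain, 7 metalloproteinases (*Mmp2*, *Mmp9*, *Mmp12*, *Mmp14*, *Mmp15*, *Mmp16* and *Mmp17*) and 3 tissue inhibitors of metalloproteinases (*Timp2*, *Timp3* and *Timp4*). They were taken by symbol from the 52459 genes of the count tables, and all 10 were found. RNA-seq libraries of poly(A)-selected RNA came from *Tpp1*-/- mice (T) and wild-type controls (N), and 2 areas of the brain were taken, the cerebellum (Cb) and the joined forebrain and midbrain (F/M). The 4 groups, Cb-N, Cb-T, F/M-N and F/M-T, held 3 libraries each, 12 in all, and every mouse was a 4-month-old male bred from heterozygous crosses of a line in which *Tpp1* was disrupted by gene targeting. *Tpp1* encodes the lysosomal tripeptidyl peptidase that is lost in classic late infantile neuronal ceroid lipofuscinosis, and the disruption is present in every cell of the T mice. No other allele or agent was named for any group. Cb and F/M were taken from 3 mice of each genotype, and the labels do not say which libraries share a mouse, so the tests over both areas treat the 12 libraries as independent.

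Matrix metalloproteinases (MMPs) are zinc-dependent endopeptidases that cut collagens, laminins, proteoglycans and many cell surface proteins, and they are made as proenzymes that other proteases must activate. Some are secreted, such as the gelatinases MMP2 and MMP9 and the macrophage elastase MMP12, and others are held on the cell surface by a transmembrane segment or a lipid anchor. Tissue inhibitors (TIMPs) bind the active site of MMPs, and in the brain the balance between both families is known for its part in the remodeling of the perivascular basement membrane, perineuronal nets and myelin.

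Total counts per library lay between 21428379 and 24458189. Levels are given as CPM, counts scaled to library size and normalized by TMM, and a floor of 3 counts was set as the detection limit, which came to 0.121 to 0.139 CPM and covers counting error only. Replicates differed from each other by more than sampling noise, with a chi-square per degree of freedom of 1.27 to 3.37. *Tpp1* measured 112 to 114 CPM in Cb-N against 28.0 to 31.0 CPM in Cb-T, and 87.7 to 94.3 CPM in F/M-N against 21.8 to 23.9 CPM in F/M-T, so the target was lower in every T library. The areas carried their markers, since the summed level of 6 granule cell genes was 4783 to 5721 CPM in the Cb libraries and 88.8 to 97.3 CPM in the F/M libraries. Markers of brain regions also differed between genotypes. Counts of 12 *Hox* genes, which mark hindbrain and spinal cord, summed to 304 to 320 in each Cb-T library, 5 to 12 in each Cb-N library and at most 2 in any F/M library. *Tph2* and *Slc6a4*, genes of serotonergic neurons, measured 0.931 to 1.44 and 0.0900 to 0.212 CPM in F/M-N against 9.41 to 9.93 and 6.08 to 6.74 CPM in F/M-T. All 3 T libraries of an area were alike in this, so none could be left out, and genotype and the extent of the dissected tissue cannot be told apart in either area.

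In the control cerebellum, the 3 inhibitors were the most abundant of these RNAs, while in F/M-N *Mmp17* stood above *Timp3* and *Mmp15* above *Timp4*. Levels of different genes were compared as CPM per kilobase (kb) of exon. In Cb-N, *Timp4* was highest at 26.7 ± 0.495 CPM per kb (mean ± SD, n = 3), followed by *Timp3* at 19.5 ± 0.469 and *Timp2* at 16.6 ± 0.438. *Mmp17*, a lipid-anchored metalloproteinase, led the enzymes at 7.39 ± 0.265 CPM per kb, ahead of *Mmp14* at 3.79 ± 0.138. *Mmp15*, *Mmp16*, *Mmp9* and *Mmp2* followed between 2.76 and 0.624 CPM per kb, and *Mmp12* was last. No neighbors in this order overlapped between libraries. In F/M-N, *Timp2* stood far above the rest at 100.6 ± 1.84 CPM per kb, ahead of *Mmp17* at 30.0 ± 0.380 and *Timp3* at 19.5 ± 0.560, while *Timp4* reached 4.45 ± 0.0830.

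**Figure D1:**
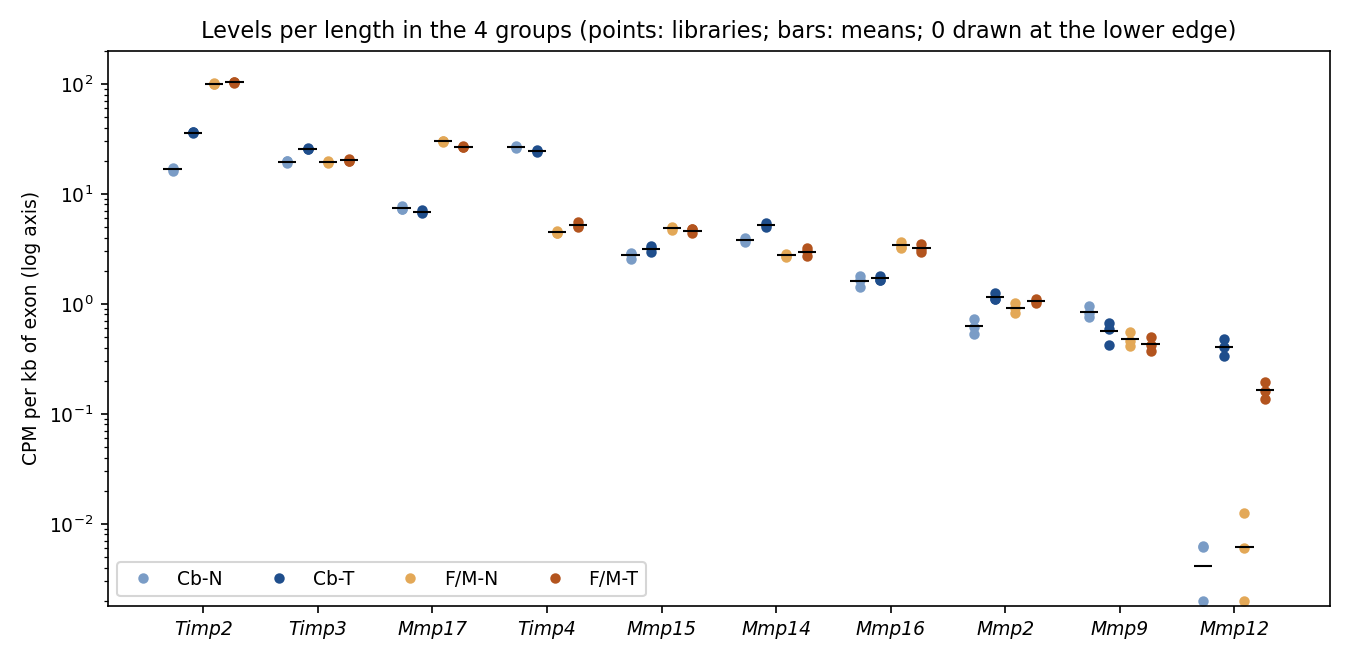
Level per length of the 10 genes in each library, as CPM per kb of exon on a log axis, with colors for the 4 groups and black bars for the mean of 3 libraries. *Timp2* ran from 16.6 in Cb-N to 102.9 in F/M-T, and *Mmp12* was at or near 0 in both N groups.

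The difference between control areas was tested in the 6 N libraries for 9 of the 10 genes, since *Mmp12* did not pass the filter on low counts there. A gene was called at a false discovery rate (FDR, Benjamini-Hochberg over all genes tested) below 0.1 with levels at least 1.5-fold apart. *Mmp9* and *Timp4* were higher in Cb-N and *Mmp15*, *Mmp16*, *Mmp17* and *Timp2* were lower, 6 calls among 9 tested, beside 42.0% of all 16725 genes tested (19.2% higher and 22.8% lower). *Timp2* and *Timp4* ran in opposite directions by almost the same amount. *Timp2* was 6.06-fold lower in Cb-N (log2 difference -2.60, SE 0.0325, FDR 9.6e-24) and *Timp4* 5.97-fold higher (2.58, SE 0.0389, FDR 1.9e-22). *Mmp17* was 4.08-fold lower in Cb-N (-2.03, SE 0.0357, FDR 2.4e-21). *Timp3* did not pass the test (-0.0066, SE 0.0325, FDR 0.86), with 154 to 161 CPM in Cb-N and 154 to 163 CPM in F/M-N. *Mmp14*, at 0.45, and *Mmp2*, at -0.56, passed the FDR limit, as 80.5% of all genes did, without reaching 1.5-fold.

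The question put to the genotypes was which of these RNAs change with the loss of *Tpp1* and whether both areas change alike. In Cb, 3 of the 10 genes rose, *Mmp12*, *Timp2* and *Mmp2*, and none fell. *Mmp12* passed the filter on low counts in both areas only through the T libraries, so the counts that include it are a description. Among all 16382 genes tested in Cb, 11.2% were called, 8.54% upward and 2.66% downward. At the FDR limit alone, 6 genes were higher and 3 lower in Cb-T, while 57.6% of all genes tested passed that limit. The T and N libraries of Cb did not overlap for 9 of the 10, against 57.1% of all genes tested, so non-overlap was common in this area. No median of the 10 is given, since *Mmp12* was tested only through its T libraries. In F/M, *Mmp12* alone rose and none fell, where 3.49% of 16665 genes tested were called (2.63% upward and 0.858% downward). Another 3 genes were higher and 1 lower in F/M-T at the FDR limit alone, which 27.2% of all genes passed. Libraries did not overlap for 4 of the 10 in F/M, against 37.0% of all genes.

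**Figure D2:**
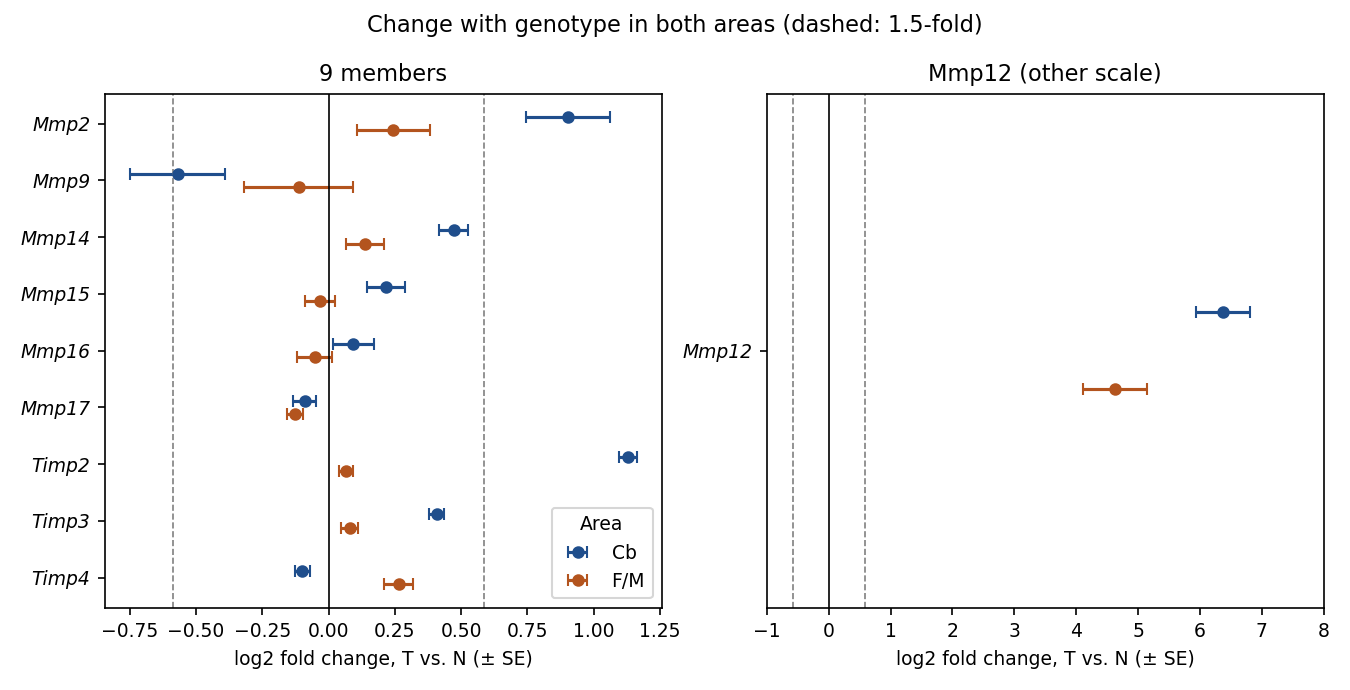
Log2 fold change of T against N with its SE for each gene in Cb (blue) and F/M (brown), with dashed lines at 1.5-fold and *Mmp12* on a wider scale of its own. *Timp2* and *Mmp2* lie past the dashed line in Cb and not in F/M, and *Mmp12* lies past it in both. The SE bars of *Mmp12* state more precision than its 0 to 2 counts per N library allow.

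Of the secreted enzymes, *Mmp12* (chr9:7344381-7369499, plus strand, GRCm38) showed the largest difference of the 10. It encodes macrophage elastase, a protease made by activated macrophages. Its raw counts were 1, 1 and 0 in the Cb-N libraries and 83, 60 and 70 in Cb-T, or at most 0.046 CPM against 3.50, 2.42 and 2.90 CPM. In F/M it had 1, 2 and 0 counts in N and 32, 24 and 27 in T, or at most 0.090 CPM against 1.40, 0.993 and 1.16 CPM. Every N library of both areas was thus under the floor and every T library well above it. The ratio of summed counts, corrected for library size, was 96.6 in Cb (95% exact interval 26.4 to 803, from 213 against 2 counts) and 27.1 in F/M (9.0 to 134, from 83 against 3 counts), intervals that cover counting error only. The fitted log2 fold changes, which depend on the prior count, were 6.37 (SE 0.44, FDR 2.4e-16) in Cb, the 9th highest of 16382 genes, and 4.63 (SE 0.52, FDR 1.9e-06) in F/M, the 7th highest of 16665. These SE were derived from the F of the test and state more precision than the exact intervals. By DESeq2 the Cb value was 6.60 with an SE of 1.05. The increase in Cb and that in F/M were not shown to differ by the interaction (1.76, SE 1.33, FDR 0.39). Leaving out 1 library kept both calls but moved these values, from 5.87 (without Cb-N replicate 3) to 6.72 (without Cb-N replicate 2) in Cb and from 4.08 (without F/M-N replicate 3) to 5.50 (without F/M-N replicate 2) in F/M. DESeq2 gave 4.79 in F/M but left the adjusted value as NA, so it made no call there. The interaction ran from 0.90 without F/M-N replicate 2 to 2.31 without F/M-N replicate 3, and was not called in any case. *Hox* counts were raised in Cb-T, and *Tph2* and *Slc6a4* in F/M-T, beside this rise, and their part in it was not tested. Cb-T exceeded F/M-T without overlap, 2.42 to 3.50 against 0.993 to 1.40 CPM.

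The window around the annotated start of *Mmp12* is shown because this was the gene that rose in both areas. RefSeq gives 2 starts for it in GRCm38.p6, and windows of 300 bases, 250 before and 50 after a start, were searched on both strands. The AP-1 element was spelled TGACTCA. The TATA box was searched as TATAAA. For the ETS element the letters were AGGAAG. In the sequences, capitals mark these matches. The downstream window, chr9:7347124-7347423 on the plus strand, holds an AP-1 element on the reverse strand, which begins 44 bases before the start, and a TATA box that begins at base 5, the start being base 1.
Mmp12, downstream start: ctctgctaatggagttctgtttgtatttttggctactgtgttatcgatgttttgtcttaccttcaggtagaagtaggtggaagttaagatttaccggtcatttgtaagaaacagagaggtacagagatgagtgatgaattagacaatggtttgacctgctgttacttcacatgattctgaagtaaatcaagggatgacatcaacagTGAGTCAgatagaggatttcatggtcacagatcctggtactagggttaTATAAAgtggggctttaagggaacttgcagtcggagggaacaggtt
The upstream window, chr9:7344147-7344446 on the plus strand, holds only an ETS element on the reverse strand, which begins 87 bases before the start.
Mmp12, upstream start: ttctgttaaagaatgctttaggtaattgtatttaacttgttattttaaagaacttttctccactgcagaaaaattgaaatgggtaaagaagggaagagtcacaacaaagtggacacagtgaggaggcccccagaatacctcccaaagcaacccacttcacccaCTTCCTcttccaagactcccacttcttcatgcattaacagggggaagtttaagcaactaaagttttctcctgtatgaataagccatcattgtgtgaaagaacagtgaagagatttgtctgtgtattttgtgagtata
Of 32851 such windows, 5.20% hold the AP-1 element, 13.6% the TATA box and 35.4% the ETS element. These matches describe the letters of the window and not the binding of a factor.

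*Mmp2* (chr8:92827291-92853420), which encodes the gelatinase that degrades type IV collagen of basement membranes, measured 2.44, 2.06 and 1.81 CPM in Cb-N and 3.75, 3.70 and 4.27 CPM in Cb-T. The groups did not overlap, and the increase was 1.87-fold (log2 0.90, SE 0.16, FDR 5.4e-06). In F/M its levels were 3.43, 3.06 and 2.79 CPM in N and 3.59, 3.44 and 3.72 CPM in T. These F/M groups lay next to each other without overlap, and the difference did not pass the test (0.24, SE 0.14, FDR 0.23). The change in Cb exceeded that in F/M by 0.68 (SE 0.21, FDR 0.017). That call was lost without 1 Cb-N library, replicate 3 (0.58, FDR 0.057), or 1 Cb-T library, replicate 3 (0.56, FDR 0.069), since the difference then fell under 1.5-fold. Cb-N was its lowest group and Cb-T its highest, although Cb-T and F/M-T overlapped.

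*Mmp9* (chr2:164940780-164955850), the other gelatinase, which neutrophils store in granules and neurons make after activity, went the other way. It measured 2.66, 3.39 and 2.92 CPM in Cb-N and 2.11, 2.38 and 1.49 CPM in Cb-T. All Cb-T libraries were below all Cb-N libraries, and the log2 fold change of -0.57 (SE 0.18, FDR 0.0068) passed the FDR limit but lay just under 1.5-fold. Leaving out 1 library put it past that limit in 4 of 6 cases, with values between -0.72 and -0.40, so its place beside the limit is not settled. In F/M, 1.47 to 1.95 CPM in N and 1.32 to 1.75 CPM in T overlapped (-0.11, FDR 0.74). The interaction was not called (-0.44, SE 0.28, FDR 0.29). The summed level of 8 neutrophil markers was lower in T, at 3.46 to 4.13 CPM in Cb-N against 2.90 to 3.40 CPM in Cb-T and 1.57 to 1.82 CPM in F/M-N against 1.11 to 1.28 CPM in F/M-T. Not all markers fell, since *S100a8* overlapped in Cb, at 0.974 to 1.15 CPM in Cb-N and 0.765 to 1.43 CPM in Cb-T. Most of the other markers lay near the floor. Of these markers, 3 were tested in Cb and 1 in F/M, and none was called by edgeR's test or passed the FDR limit alone. Their part in the level of *Mmp9* was not tested.

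Among the membrane-bound enzymes, *Mmp14* (chr14:54431612-54445364) showed the clearest difference. Its product activates the MMP2 proenzyme at the cell surface. Levels were 23.4, 21.8 and 22.5 CPM in Cb-N and 32.2, 29.9 and 30.9 CPM in Cb-T. The groups were well apart, and the 1.39-fold difference (0.47, SE 0.054, FDR 8.0e-10) passed the FDR limit without reaching 1.5-fold. In F/M, 17.0, 16.0 and 16.4 CPM in N overlapped 19.1, 16.2 and 17.8 CPM in T (0.14, SE 0.071, FDR 0.19). The interaction of 0.35 (SE 0.088, FDR 0.0033) was below 1.5-fold.

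*Mmp15* (chr8:95352268-95375080) and *Mmp16* (chr4:17852893-18119145), both transmembrane enzymes, differed little with genotype. *Mmp15* ran from 13.8 to 15.6 CPM in Cb-N and from 16.1 to 18.1 CPM in Cb-T, which did not overlap (0.22, SE 0.071, FDR 0.010), and from 25.1 to 27.0 CPM in F/M-N and 23.7 to 25.7 CPM in F/M-T, which did (-0.031, FDR 0.74). *Mmp16* overlapped between genotypes in both areas, with 12.4 to 15.4 CPM in Cb-N and 14.3 to 15.7 CPM in Cb-T (0.094, FDR 0.32), and 27.9 to 31.8 CPM in F/M-N and 25.4 to 30.5 CPM in F/M-T (-0.052, FDR 0.62). For both genes every F/M library was above every Cb library.

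*Mmp17* (chr5:129584169-129611099) was the only enzyme with a lower level in T in both areas at the FDR limit, by a small amount. It measured 50.9, 47.8 and 48.0 CPM in Cb-N and 47.4, 45.0 and 44.2 CPM in Cb-T (-0.090, SE 0.043, FDR 0.080). In F/M it measured 202, 198 and 197 CPM in N and 180, 177 and 178 CPM in T (-0.12, SE 0.030, FDR 0.0051). The libraries did not overlap in either area, narrowly so in Cb. In Cb the FDR rose above the limit without the filter on low counts (0.13), with DESeq2 (0.15), and without Cb-N replicate 1 (0.29), Cb-T replicate 2 (0.19) or Cb-T replicate 3 (0.24).

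**Figure D3:**
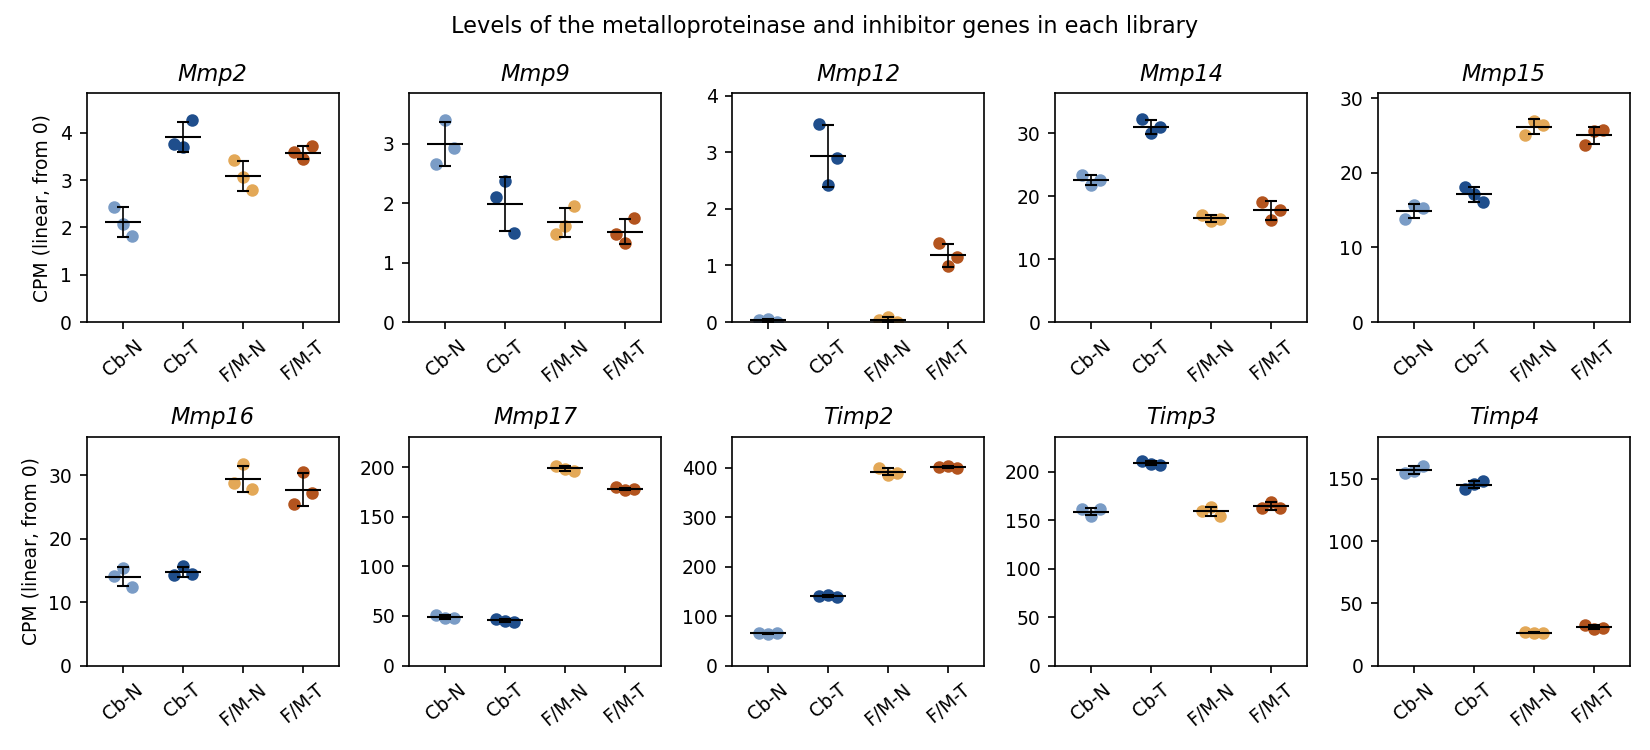
CPM of each of the 10 genes in every library, on linear axes from 0, with black bars for the mean and SD of 3 libraries per group. *Timp2* stood at 62.9 to 66.2 CPM in Cb-N and 138 to 142 CPM in Cb-T, while the F/M groups lay close together near 400 CPM.

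Of the 3 inhibitors in the set, *Timp2* (chr11:118301069-118355740, minus strand) changed most in Cb. TIMP2 inhibits MMPs, and it also bridges the MMP2 proenzyme to MMP14 for activation. *Timp2* measured 66.2, 62.9 and 65.4 CPM in Cb-N and 141, 142 and 138 CPM in Cb-T. The replicates were tight and the groups far apart, and the increase was 2.19-fold (1.13, SE 0.033, FDR 1.6e-29). In F/M, 400, 386 and 390 CPM in N overlapped 401, 403 and 399 CPM in T. That difference of 0.067 (SE 0.027, FDR 0.089) no longer passed the FDR limit with RLE size factors (0.11), without the filter on low counts (0.17), with DESeq2 (0.20), in a single fit of 12 libraries (0.38) or without any 1 of the 6 libraries (0.11 to 0.25). The change in Cb exceeded that in F/M by 1.08 (SE 0.040, FDR 9.7e-19). *Timp2* thus moved in the area where its control level was 6.06-fold lower, and Cb-T stayed below every F/M library. The *Hox* counts of the Cb-T libraries moved with this rise, and the levels of *Timp2* in the hindbrain were not measured here.

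The RefSeq window of *Timp2*, chr11:118355362-118355661 on the minus strand, is shown beside those of *Mmp12*, as *Timp2* had the second largest increase of the members in Cb. None of the 3 elements is in it, so no base is in capitals, which says nothing of the factors.
Timp2 start: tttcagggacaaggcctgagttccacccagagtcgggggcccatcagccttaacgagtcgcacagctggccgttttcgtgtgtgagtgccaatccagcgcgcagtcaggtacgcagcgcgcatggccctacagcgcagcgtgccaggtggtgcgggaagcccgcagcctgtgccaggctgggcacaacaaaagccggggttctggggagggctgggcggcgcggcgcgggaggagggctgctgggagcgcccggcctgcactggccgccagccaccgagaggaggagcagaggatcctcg

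*Timp3* (chr10:86300372-86349506), a matrix-bound inhibitor that also acts on ADAM proteases, measured 161, 154 and 161 CPM in Cb-N and 211, 208 and 207 CPM in Cb-T. The groups did not overlap, and the 1.33-fold difference (0.41, SE 0.027, FDR 1.2e-16) was precise but under 1.5-fold. In F/M, 160, 163 and 154 CPM in N overlapped 162, 169 and 162 CPM in T (0.079, SE 0.032, FDR 0.092), a difference that failed the FDR limit under the same 4 alternatives as that of *Timp2*, at 0.11 to 0.29, and without any 1 library other than F/M-N replicate 2, at 0.14 to 0.24. Its highest group was Cb-T, apart from the rest. *Syn3* lies on the opposite strand, and its exons cover 21.3% of the exon length of *Timp3*. The strand setting of the counting was not stated, but *Syn3* was far below *Timp3* at 9.14 to 13.2 CPM in any library.

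*Timp4* (chr6:115241892-115252205, minus strand) was the only member that passed the FDR limit in both areas with opposite signs. It measured 155, 157 and 160 CPM in Cb-N and 142, 146 and 148 CPM in Cb-T, a decrease that passed the FDR limit (-0.098, SE 0.029, FDR 0.0037). In F/M it measured 26.8, 25.9 and 26.0 CPM in N and 32.6, 29.6 and 30.2 CPM in T, a difference upward (0.26, SE 0.055, FDR 0.0017). Neither pair of groups overlapped, and neither difference reached 1.5-fold. The interaction was -0.34 (SE 0.058, FDR 3.8e-05). In both areas the change brought *Timp4* toward the level of the other area, without closing much of the gap. *Syn2*, on the opposite strand, shares 90 bases, or 1.53%, of the exon length of *Timp4*, and stood above it in every library, at 258 to 297 CPM in Cb and 534 to 589 CPM in F/M. Without the strand setting, reads of *Syn2* in these bases cannot be told apart from those of *Timp4*.

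For the difference of the changes between areas, 2 of the 10 genes, *Timp2* and *Mmp2*, were called, both with the larger increase in Cb. Of 17482 genes tested, 7.61% were called, 6.41% with the larger value in Cb and 1.20% with the smaller. At the FDR limit alone, which 27.5% of all genes passed, *Mmp14*, *Mmp15* and *Timp3* joined them on the same side and *Timp4* stood on the other side. *Mmp9*, *Mmp12*, *Mmp16* and *Mmp17* did not pass. The order per kb in Cb-T began with *Timp2* at 36.1 ± 0.605, ahead of *Timp3* at 25.6 ± 0.293 and *Timp4* at 24.7 ± 0.496 CPM per kb, the reverse of the order in Cb-N. *Mmp9* and *Mmp12*, last in Cb-T, overlapped between libraries. In F/M-T the first 3 places were held by *Timp2*, *Mmp17* and *Timp3*, as in F/M-N.

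Of 18 other genes of the family, 8 were tested in each area, and 10 metalloproteinase genes, among them *Mmp3*, *Mmp8* and *Mmp13*, were too low to test. *Timp1*, the inducible inhibitor, rose in both areas, where it passed the filter on low counts only through the T libraries, with 6 to 16 counts in Cb-N and 4 to 6 in F/M-N. It measured 0.266 to 0.733 CPM in Cb-N and 4.07 to 4.55 CPM in Cb-T (3.25, SE 0.23, FDR 6.5e-16), and 0.169 to 0.270 CPM in F/M-N and 0.579 to 0.788 CPM in F/M-T (1.72, SE 0.40, FDR 0.0038). *Mmp19*, a secreted metalloproteinase, rose in Cb, from 0.742 to 1.10 CPM in Cb-N to 2.49 to 4.35 CPM in Cb-T (1.93, SE 0.22, FDR 4.4e-10), and did not pass in F/M (0.49, FDR 0.21). Both areas differed for these genes, by 1.55 for *Timp1* (FDR 0.048) and 1.46 for *Mmp19* (FDR 0.0052).

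Genes that activate or restrain the proteases had several calls in both areas. Of 16 tested genes for activation and control, 6 rose and none fell in Cb, where 8.54% of all genes rose and 2.66% fell, and 4 rose and none fell in F/M, where 2.63% rose and 0.858% fell. Of these calls, 2 in Cb and 1 in F/M were of genes that passed the filter on low counts only through the T libraries, so the counts are a description and no median is given. *Serpinf2*, the inhibitor of plasmin and one of these genes in both areas, rose by 4.05 in Cb (FDR 2.1e-13) and 3.54 in F/M (FDR 1.2e-05), from at most 0.229 CPM in any N library to 2.15 to 2.49 CPM in Cb-T and 0.828 to 0.963 CPM in F/M-T. *Plau*, the urokinase that turns plasminogen into plasmin, rose by 2.23 in Cb (FDR 1.1e-14) and 0.75 in F/M (FDR 0.0018). In F/M the others with the largest increase were *A2m*, a broad protease inhibitor, at 0.99 (FDR 6.1e-08) and *Plaur*, the urokinase receptor, at 0.79 (FDR 0.032). Plasminogen itself (*Plg*) and *Tfpi2* were too low to test.

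Of 8 ADAM proteases, 1 rose in Cb, *Adam33* at 2.06 (FDR 1.2e-04), with 0.139 to 0.222 CPM in Cb-N and 0.443 to 1.05 CPM in Cb-T, and none was called in F/M, beside 11.2% of all genes called in Cb and 3.49% in F/M. *Adam33* passed the filter in Cb only through Cb-T, at 3 to 5 counts in Cb-N. Of the ADAMTS proteases, which cut proteoglycans and procollagens, 14 were tested in Cb and 16 in F/M, and each area had 1 call, both downward, where 2.66% and 0.858% of all genes were called downward. *Adamts10* fell by 0.72 in Cb (FDR 1.4e-22), from 145 to 157 CPM to 89.2 to 90.8 CPM, and *Adamts19* fell by 1.56 in F/M (FDR 1.9e-05), from 2.43 to 3.56 CPM to 0.899 to 1.01 CPM. None of 15 basement membrane genes and none of 6 fibrillar matrix genes was called in either area by edgeR's test, although 12 and 2 of them passed the FDR limit alone in Cb, as 57.6% of all genes did, and 5 and 1 in F/M, beside 27.2%. Of 12 genes of the brain matrix, the proteoglycan cores *Acan* and *Ncan* rose in Cb, both by 0.67 (FDR 8.3e-04 and 1.0e-14), and none was called in F/M.

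**Figure D4:**
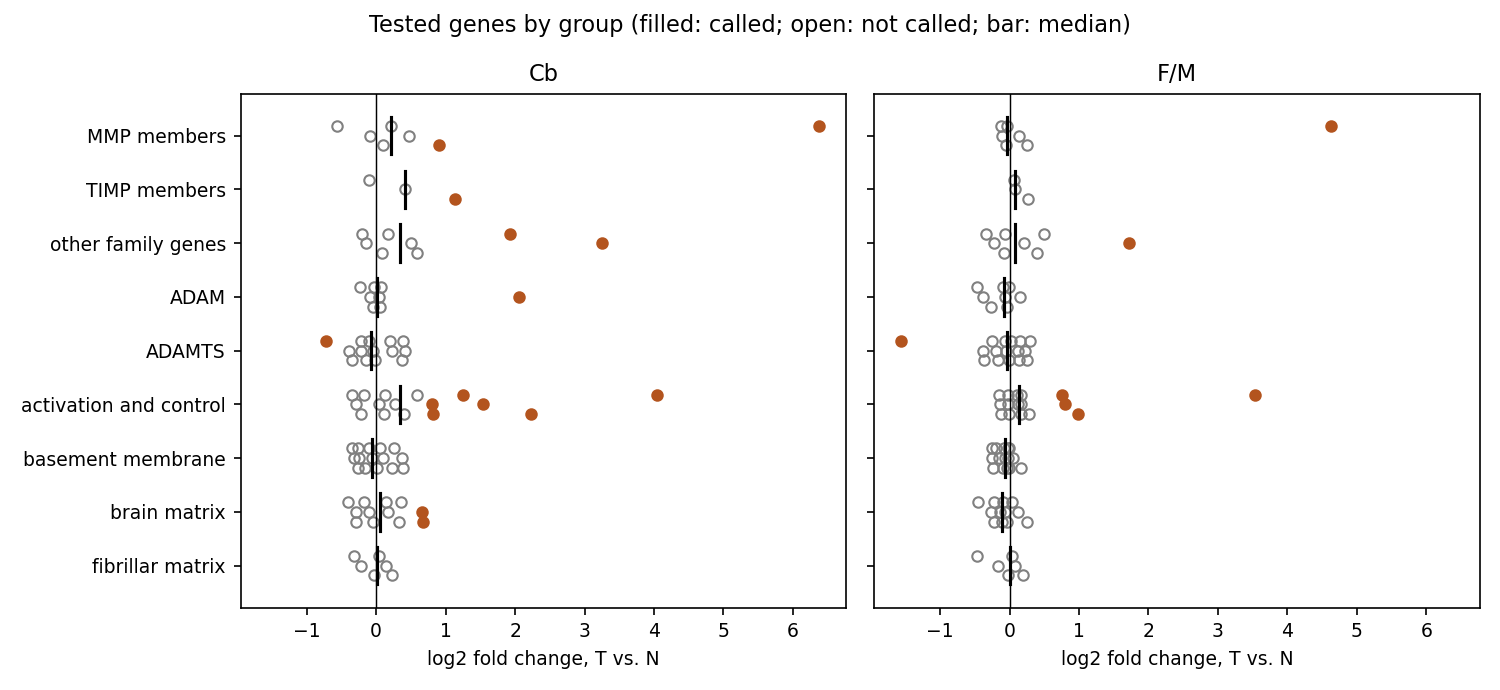
Log2 fold change of every tested gene of each group in Cb (left) and F/M (right), with filled points for called genes, open points for the rest and a black bar at the median. The filled points of the activation and control group all lie to the right of 0, and the basement membrane and fibrillar matrix groups have none. Some groups hold genes, such as *Mmp12*, that passed the filter only through T libraries, so their medians are a description.

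Cell markers moved with these RNAs. In bulk tissue, fewer or more cells of a type and less or more RNA per cell cannot be told apart. Of 10 microglia genes, 8 rose in Cb and 5 in F/M, where 8.54% and 2.63% of all genes tested were called upward. Their summed level was 141 to 152 CPM in Cb-N, 446 to 459 CPM in Cb-T, 410 to 422 CPM in F/M-N and near 580 CPM in all F/M-T libraries. The 6 genes of reactive microglia, some of which passed the filter only through T libraries, summed to 30.2 to 33.3, 155 to 162, 49.6 to 51.3 and 83.0 to 89.5 CPM in the same order of groups. Most of the N sums lay in *Spp1*, at 24.8 to 27.6 CPM in Cb-N and 18.7 to 19.6 CPM in F/M-N. In F/M-N *Lpl* added 27.9 to 29.0 CPM. None of the microglia or reactive microglia genes was at 0 in a group.

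Beside the calls in the lists that follow, 8.54% of all genes tested were called upward and 2.66% downward in Cb. In F/M these shares were 2.63% and 0.858%. The 8 astrocyte genes summed to 6392 to 6473 CPM in Cb-N and 8186 to 8233 CPM in Cb-T, with 2 of them called, and to 5579 to 5905 and 6422 to 6832 CPM in F/M-N and F/M-T, with 1 called. Within this list *Gfap*, the intermediate filament of reactive astrocytes, rose from 152 to 155 CPM in Cb-N to 1137 to 1145 CPM in Cb-T (2.91, FDR 1.4e-50) and from 183 to 188 CPM in F/M-N to 603 to 621 CPM in F/M-T (1.76, FDR 1.2e-19). At the FDR limit alone, which 57.6% of all genes passed, 6 of the 8 were higher and 1 lower in Cb. The lower gene was *Slc1a3*, at 1687 to 1711 CPM in Cb-N and 1587 to 1595 CPM in Cb-T. The 10 oligodendrocyte genes summed to 4901 to 5008 CPM in Cb-N and 6370 to 6435 CPM in Cb-T and overlapped between the F/M groups (6356 to 6527 and 6295 to 6455 CPM). None of these 10 was called in either area. The 5 genes of oligodendrocyte precursors, 2 of them called in Cb and none in F/M, summed to 94.2 to 103 and 134 to 142 CPM in Cb and 214 to 220 and 208 to 214 CPM in F/M. Border macrophage sums were 8.77 to 10.2 CPM in Cb-N and 12.9 to 13.7 CPM in Cb-T, and overlapped in F/M. Of these 6 genes, 3 were called upward in Cb, among them *Pf4*, which passed the filter only through Cb-T. None was called in F/M, and 4 of the 6 had a positive log2 fold change in Cb. Endothelial genes had no call in either area, with sums of 273 to 282 CPM in Cb-N, 302 to 311 CPM in Cb-T, 239 to 249 CPM in F/M-N and 250 to 264 CPM in F/M-T, and neither had mural genes, at 305 to 313, 326 to 332, 266 to 276 and 279 to 285 CPM. Fibroblast genes summed to 238 to 246 CPM in Cb-N and 270 to 275 CPM in Cb-T, with 1 of 7 called, and to 169 to 185 CPM in F/M-N and 195 to 197 CPM in F/M-T, with none called. Choroid plexus genes summed to 599 to 638 CPM in F/M-N and 822 to 868 CPM in F/M-T, with none called, and most of this difference lay in *Ttr* (531 to 569 and 752 to 798 CPM). In Cb the choroid plexus sums overlapped, at 2243 to 2386 CPM in Cb-N and 2138 to 2272 CPM in Cb-T. Granule cell sums were 5620 to 5721 CPM in Cb-N and 4783 to 4888 CPM in Cb-T, and Purkinje cell sums 8043 to 8279 and 6775 to 6844 CPM, with no call in either list. Forebrain neuron sums were 560 to 589 CPM in F/M-N and 534 to 549 CPM in F/M-T, again with no call. Of 17 hindbrain genes, 6 were at 0 in all Cb-N libraries, and others passed the filter on low counts only through Cb-T, so no count of calls is given for this list. *Slc6a5*, its most abundant gene, measured 47.1 to 50.1 CPM in Cb-N and 46.9 to 48.5 CPM in Cb-T, and the list summed to 48.6 to 52.3 and 66.9 to 69.7 CPM. The part of these cell and region differences in the changes of *Mmp12* in both areas, of *Timp2*, *Mmp2*, *Mmp14* and *Timp3* in Cb, and of *Timp4* and *Mmp17* in F/M, was not tested.

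**Figure D5:**
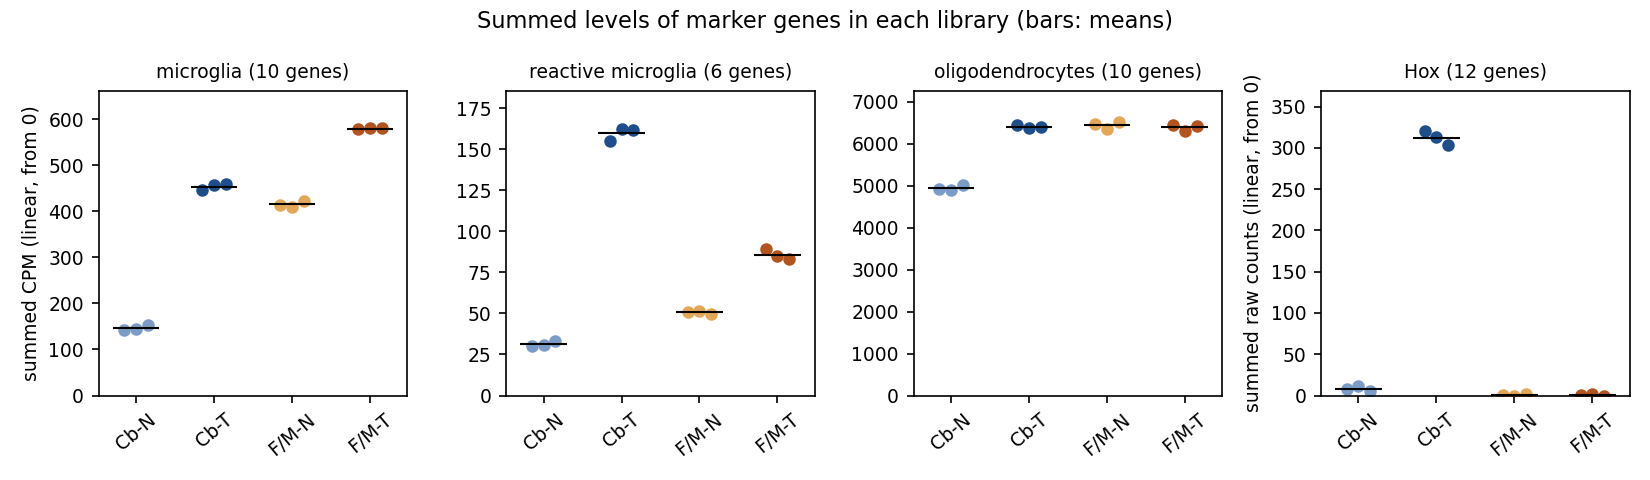
Summed CPM of the marker genes of microglia, reactive microglia and oligodendrocytes, and summed raw counts of 12 *Hox* genes, in every library, on linear axes from 0, with black bars for the mean of 3 libraries. The microglia sum was near 580 CPM in F/M-T and at most 459 CPM in Cb-T. *Hox* counts were 304 to 320 in Cb-T, 5 to 12 in Cb-N and at most 2 in F/M.

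The genes most like each called member over the 12 libraries were found by Pearson's r of log2 CPM, as a description over points that fall into 4 groups. For *Mmp12* they were *Tlr2*, *Lyz2* and *Gfap*, with r from 0.987 to 0.988. For *Mmp2* they were *Csf2rb*, *Rhog* and *Serpina3n* (0.952 to 0.972), and for *Timp2* *6330403K07Rik*, *Rasgrf2* and *Oprl1* (0.9990 to 0.9996).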

How the data were processed

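The authors aligned 50-base single-end reads of stranded poly(A) libraries to GRCm38 (mm10) with STAR, and the deposited files hold raw counts per gene from featureCounts, 1 table per library, with no normalization. The submitters' processing notes name STAR 2.5.1b and featureCounts 1.26.1. The annotation release, the strand setting and the handling of reads with several alignments are not given in the sources used here. Groups were taken from the sample titles. Codes in the names of the deposited files differ from those titles, so each file was tied to its sample by the GEO record, and *Tpp1* was lower in every library titled T.

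Everything else was computed here in R 4.3.3. Each area's 6 libraries were fitted with genotype alone in edgeR 4.0.16 (TMM, filterByExpr set to at least 10 counts and at least 15 in total, glmQLFit, glmQLFTest, Benjamini-Hochberg). SE is the log2 fold change over the square root of the quasi-likelihood F. The interaction used all 12 libraries, and CPM were normalized by TMM over the 12. Levels for the plots and per-kb values rest on those CPM and on GENCODE M21 exon lengths. Log2 CPM for likeness used a prior count of 2. Alternatives were RLE size factors, no filter, DESeq2 1.42.0, limma-voom (limma 3.58.1), other limits, a single fit, a replicate block and leaving out each library.

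The 10 members and all lists were chosen with earlier results of these data known. Named genes were the members and *Tpp1*, other family genes called in either area, in each other pathway list up to 3 called genes with the largest increase and 2 with the largest decrease per area, up to 3 genes per cell or region list, and the 3 genes most like each called member. A result for 1 gene that this rule names is not reported here. Promoter windows (RefSeq, GRCm38.p6) matched 6 of 10 members. On simulated counts with 200 genes changed 2-fold, the test recovered 199 among 16204 genes tested in Cb with 4 false calls, 200 among 16489 in F/M with 2, 193 among 17286 for the interaction with 9, and 200 among 16468 for the control areas with 6. The changed genes were drawn only from those above a set mean count, which *Mmp12* does not reach, so recovery at low counts was not tested. The p-values measure the spread between these libraries, and no batch is named in the labels.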

Additional observations from a re-analysis of the deposited data

Results flagged for a closer look

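The change with genotype differed between Cb and F/M at FDR below 0.1 for 6 of the 10 genes, by edgeR's test of the interaction over 12 libraries, a limit that 27.5% of all genes tested passed. The log2 fold change in Cb minus that in F/M was 1.08 for *Timp2* (FDR 9.7e-19), 0.35 for *Timp3* (FDR 2.4e-07), 0.35 for *Mmp14* (FDR 0.0033), 0.68 for *Mmp2* (FDR 0.017) and 0.27 for *Mmp15* (FDR 0.031), all with the higher value in Cb. For *Timp4* it was -0.34 (FDR 3.8e-05), with a decrease in Cb and an increase in F/M. The differences for *Timp2* and *Mmp2* also passed 1.5-fold, and the others did not. *Hox* counts of 304 to 320 in each Cb-T library stand beside these differences, *Tph2* at 9.41 to 9.93 CPM in F/M-T against 0.931 to 1.44 CPM in F/M-N too, and genotype and dissected tissue cannot be told apart in either area.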

How the results depend on the processing

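The calls of *Mmp12*, *Timp2* and *Mmp2* in Cb were the same under RLE size factors, no filter, DESeq2, limma-voom, the single fit, FDR below 0.05 and the replicate block. Without the limit on the fold change, the calls among the members became 9 in Cb, 5 in F/M and 6 for the interaction, and those among all genes 9442, 4541, 4816 and, for the control areas, 13459, by the construction of that alternative. DESeq2 called 0 members in F/M because it left the adjusted value of *Mmp12* as NA (log2 fold change 4.79), as for 1293 genes in all, against 1 by edgeR and 1 by limma-voom (5 at an unadjusted p under 0.05 by edgeR's test across all genes), and it called 365 of all genes there against 581. Leaving out 1 library gave 3 to 4 members in Cb, 1 to 1 in F/M, 1 to 2 for the interaction and 6 to 7 for the control areas, and 1832 to 1986, 498 to 632, 1237 to 1359 and 7052 to 7262 of all genes. Values that were not called turned their sign in 7 cases, all on leaving out 1 library: over the left-out libraries the interaction of *Mmp17* ran from -0.025 to 0.086, the F/M change of *Mmp9* from -0.23 to 0.010, of *Mmp15* from -0.061 to 0.0039 and of *Mmp16* from -0.12 to 0.0040, and the control area difference of *Timp3* from -0.031 to 0.012. Of 508 values of single members under the alternatives, without that of *Mmp12* in F/M by DESeq2, 493 kept their direction and their status as called or not called, 2 lost a call, 6 gained one and 7 turned their sign, and 28 crossed the FDR limit with or without a change of call. The cause was not tested. *Mmp15* passed the FDR limit for the interaction except with DESeq2 (0.11), without Cb-N replicate 1 (0.12) and without Cb-T replicate 1 (0.20). The N and T labels share replicate numbers, but same-number deviations had correlations between -0.016 and 0.0088 for Cb, and between 0.0069 and 0.062 for F/M, so the numbers were not taken as pairs. With the replicate block the members called stayed 3, 1, 2 and 6, and all genes called were 1834, 607, 1346 and 7023. Depth limits *Mmp12* in N, at 0 to 2 counts per library.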
